A study of Mus musculus with 2 samples.

Results

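Ribosome footprints of 8 globin-related genes were followed in the newborn mouse brain: the adult alpha chains Hba-a1 and Hba-a2, the adult beta chains Hbb-bs and Hbb-bt, the embryonic chains Hba-x, Hbb-y and Hbb-bh1, and the alpha chain chaperone Ahsp. They were chosen by name, and of each gene's transcripts the most counted one, over both libraries together, was used. Of the 8 genes, 7 were matched among the 45578 genes of the table, and Ahsp is not analysed here. The libraries came from control brains at postnatal day 5, of genotype Smn+/-; SMN2tg/0 on a congenic FVB background, so both carry the loss of 1 Smn copy and the SMN2 transgene. There was 1 group of 2 biological replicates and no other condition. The series text speaks of a mouse in the singular, so it is not settled whether the replicates are separate animals, and the spread between them may be partly technical. RiboLace beads, which carry a puromycin analogue, captured ribosomes from nuclease-treated lysate, and fragments of 25 to 35 nucleotides were sequenced. The protocols describe removal and snap-freezing of the brain and mention no perfusion.

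Haemoglobin is a tetramer made of a pair of alpha-type and a pair of beta-type chains, each of which holds a heme group. Heme is built from glycine and succinyl-CoA by enzymes that work in turn in the mitochondrion and the cytosol, and the erythroid form of the first enzyme, Alas2, serves red cell precursors while Alas1 serves other tissues. Embryonic chains are made in the first red cells of the yolk sac and give way to adult chains before birth. Red cells lose the nucleus before they lose their ribosomes and messenger RNA. Brain tissue also makes its own oxygen-binding globins, neuroglobin and cytoglobin.

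Sequences of the members come before their values, since how alike 2 gene copies are bears on which fragments each can count. In the RefSeq annotation, Hba-x, Hba-a1 and Hba-a2 lie in that order on chromosome 11, with the theta-type gene Hbq1b between Hba-a1 and Hba-a2. Hbb-bt, Hbb-bs, Hbb-bh1 and Hbb-y lie in that order on chromosome 7. Promoter sequences of RefSeq (GRCm38.p6) were found for 6 members: all but Hbb-bh1 and Ahsp. The 120 bases before the annotated start are shown for each, 5′ to 3′ on the gene's strand, with capitals marking the boxes for which globin promoters are known: the CACCC box, the CCAAT box and, nearest the start, the TATAA box.
Hba-a1: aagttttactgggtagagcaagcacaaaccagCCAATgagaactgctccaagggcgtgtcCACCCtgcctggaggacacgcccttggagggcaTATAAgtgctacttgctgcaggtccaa
Hba-a2: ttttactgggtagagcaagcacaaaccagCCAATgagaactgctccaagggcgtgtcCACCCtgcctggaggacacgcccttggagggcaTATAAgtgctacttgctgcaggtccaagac
Hbb-bs: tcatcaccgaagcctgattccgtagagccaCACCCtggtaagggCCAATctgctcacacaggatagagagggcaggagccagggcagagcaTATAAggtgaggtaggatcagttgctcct
Hbb-bt: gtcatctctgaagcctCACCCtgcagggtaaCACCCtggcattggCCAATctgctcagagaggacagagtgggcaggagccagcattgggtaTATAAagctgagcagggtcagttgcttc
Hba-x: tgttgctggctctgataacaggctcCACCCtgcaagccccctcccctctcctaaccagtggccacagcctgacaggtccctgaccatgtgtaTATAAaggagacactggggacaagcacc
Hbb-y: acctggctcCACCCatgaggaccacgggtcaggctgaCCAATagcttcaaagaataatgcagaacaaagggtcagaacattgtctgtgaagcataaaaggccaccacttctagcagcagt

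These windows are chr11:32283552-32283671 (Hba-a1, plus strand), chr11:32296372-32296491 (Hba-a2, plus), chr7:103827929-103828048 (Hbb-bs, minus), chr7:103813924-103814043 (Hbb-bt, minus), chr11:32276480-32276599 (Hba-x, plus) and chr7:103853208-103853327 (Hbb-y, minus). In the 250 bases before the start, the CACCC box was found on the gene's strand in 6 of 6 members, the CCAAT box in 5 and the TATAA box in 5. Hba-x lacked CCAAT and Hbb-y lacked TATAA on either strand of that window. Of the 32851 promoters in the table, 30.2% held CACCC on the gene's strand, 19.1% held CCAAT and 16.0% held TATAA, and on either strand the shares were 52.0%, 33.8% and 22.8%. All 3 boxes together, on the gene's strand, were held by 0.779% of promoters and by 4 of the 6 globin genes, which are the 4 adult genes. The boxes were chosen because globin promoters are known for them, so this share is no independent result. Hba-a1 and Hba-a2 match here at 297 of 297 aligned bases and are not separate cases. GATAA, which holds the core letters of the GATA factor motif, was found on the gene's strand in 5 of 6 members and in 12.5% of all promoters. None of these motifs contains another, and in the stretches shown none overlaps another; the matches describe letters, not binding.

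Hba-a1 and Hba-a2 were identical over 297 of 297 aligned bases around the start, once a shift of 3 bases between the annotated starts was allowed for. Within the first 50 transcribed bases they shared a run of 47 bases and 23 of 26 windows of 25 bases, the shortest fragment length that was size selected. The first coding bases in that window read atggtgctctctggg in Hba-a1 and atggtgctctctggggaa in Hba-a2. A fragment of 25 bases from any of the shared windows matches both alpha genes. Hbb-bs and Hbb-bt matched at 56.2% of 299 bases around the start, in a comparison that allowed a shift but no gaps. An inserted or missing base in either copy would lower that share. Hbb-bs and Hbb-bt shared 0 of 26 windows of 25 bases in the first 50 transcribed bases, where the longest shared run was 12 bases. The transcribed sequence beyond these 50 bases was not compared here, so how far the coding parts of the beta genes share footprints was not tested on sequence.

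The adult chains had nearly equal footprint counts. Hba-a1 had 343 counts in replicate 1 and 121 in replicate 2, and Hba-a2 had 362 and 120. Hbb-bs had 351 and 108 counts, and Hbb-bt had 345 and 113. Replicate 1 had 2.86 times as many gene counts as replicate 2, 343552 against 120282, and the globin counts followed that difference. Within a pair the copies differed by at most 19 counts: Hba-a1 over Hba-a2 was 0.948 in replicate 1 (exact 95% interval 0.815 to 1.10) and 1.01 in replicate 2 (0.777 to 1.31). Hbb-bs over Hbb-bt was 1.02 in replicate 1 (0.874 to 1.18) and 0.956 in replicate 2 (0.727 to 1.26). Neither copy of a pair stood above the other in both libraries. These intervals treat the copies as separate counts, although a fragment that matches both may have been counted for each, and all intervals here cover counting error only, since reads were not tagged with molecular identifiers.

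The annotated transcripts of the copies differ in their ends, and the counts did not follow that difference. The representative Hba-a1 transcript has a 5' untranslated region of 196 nucleotides and that of Hba-a2 one of 35, with the same coding length of 429. Hba-a1 nonetheless had 19 counts fewer than Hba-a2 in replicate 1 and 1 more in replicate 2. From the RefSeq starts used above, the start codon begins at base 36 in Hba-a1 and at base 33 in Hba-a2. The 2 annotations therefore disagree on the 5' end of Hba-a1 and, by much less, on that of Hba-a2. Which ends their messages carry was not tested. Hbb-bs has a 5' untranslated region of 203 nucleotides and Hbb-bt one of 127, with the same coding length of 444, and their counts differed by 6 and -5. A shorter Hbb-bs transcript with 311 coding nucleotides, or 70.0% of the full coding length, and no annotated 3' untranslated region had 262 and 75 counts. That is 74.6% and 69.4% of the counts of the full transcript, close to its share of the coding length. Retained-intron transcripts of Hba-a1, Hba-a2 and Hbb-bs held between 52.5% and 72.2% of the counts of the full transcript of the same gene. The table does not say which of these counts came from exons that the transcripts share.

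On a scale that allows genes to be compared, CPM (footprint counts scaled to library size by the TMM method of edgeR) per kilobase of coding sequence, the 4 adult globins lay close together. The counts are per transcript, and transcripts without a coding length hold counts too. Footprints outside the coding sequence may thus add to this density and to ranks and ratios drawn from it. Hba-a2 had a footprint density of 2287 CPM per kilobase in replicate 1 and 2498 in replicate 2, or 2392 ± 149 (SD, n = 2). Hba-a1 had 2167 and 2519, or 2343 ± 249 (SD, n = 2). Alpha copies were the higher pair by mean density. Hbb-bt had 2106 and 2273 CPM per kilobase, or 2189 ± 118 (SD, n = 2), and Hbb-bs had 2142 and 2172, or 2157 ± 21.0 (SD, n = 2). In the order Hba-a2, Hba-a1, Hbb-bt, Hbb-bs, no neighbours differed by more than the larger of their SDs. In footprints of bulk tissue, fewer cells that make globin, less globin messenger RNA per cell and fewer ribosomes per message cannot be told apart.

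**Figure D1:**
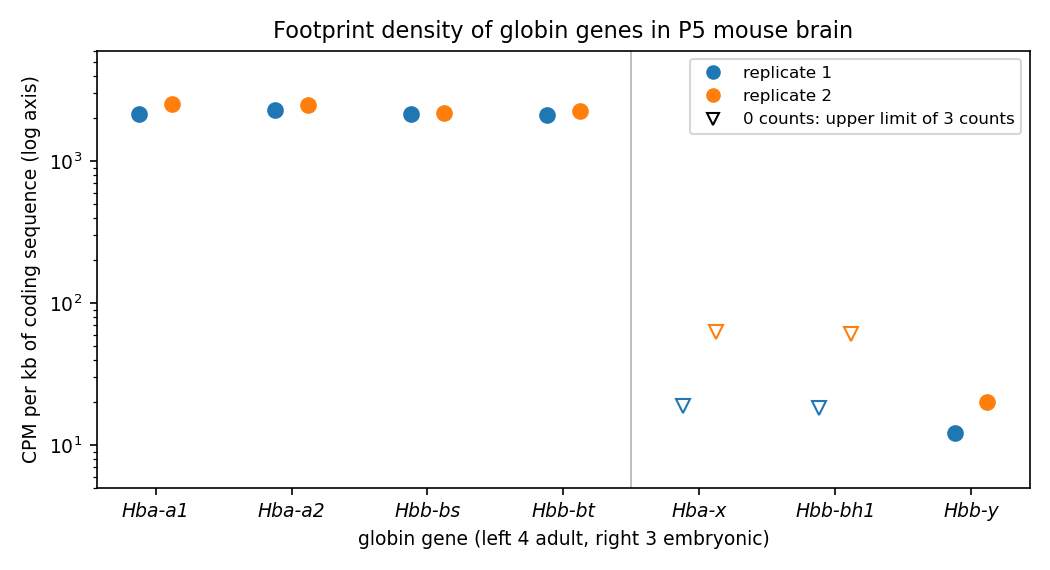
Footprint density of the 7 globin genes in each library, in CPM per kilobase of coding sequence on a log axis, with 1 filled point per library and open triangles for the limit that 0 counts allow. The adult genes lie between 2106 and 2519 CPM per kilobase, and Hbb-y, the embryonic gene with any count, lies at 12.2 and 20.1.

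To compare alpha with beta, 1 copy stood for each pair: Hba-a2 for alpha and Hbb-bs for beta, the copies with more counts. The alpha copies share sequence and so can count the same fragment, while for the beta copies such sharing was not tested. Per coding length the alpha to beta ratio was 1.07 in replicate 1, with an exact 95% interval of 0.919 to 1.24. It was 1.15 in replicate 2, with an interval of 0.879 to 1.51, and the mean of both was 1.11 ± 0.058 (SD, n = 2). Both intervals include 1. A 2-sided exact binomial test of equal density gave p = 0.389 in replicate 1 and p = 0.320 in replicate 2, and these tests speak of the reads of 1 library each. The interval of replicate 1 reaches 1.24 and that of replicate 2 reaches 1.51, so this depth does not show that the chains were equal. A 2-sided Fisher exact test of the alpha and beta counts between the libraries gave p = 0.648.

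The other copies gave a similar ratio, which is no independent check where the copies of a pair counted the same fragments. Hba-a1 over Hbb-bt was 1.03 in replicate 1 (0.884 to 1.20) and 1.11 in replicate 2 (0.850 to 1.45). Summing both copies of each pair gave 1.05 (0.943 to 1.17) and 1.13 (0.936 to 1.36). These intervals treat all summed counts as separate and are too narrow if a fragment was counted for both copies. What moved the ratio was the length or the isoforms that were counted. Divided by the length of the transcript, 554 nucleotides for Hba-a2 and 778 for Hbb-bs, it was 1.50 ± 0.079 (SD, n = 2). That is because the Hbb-bs transcript has longer annotated ends. The transcripts of the other copies, Hba-a1 and Hbb-bt, are 699 and 703 nucleotides long, so this rise rests on the copies chosen. With isoforms summed, 2 transcripts of Hba-a1 stand against 3 of Hbb-bs, and the ratio turned to 0.725 ± 0.034 (SD, n = 2).

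**Figure D2:**
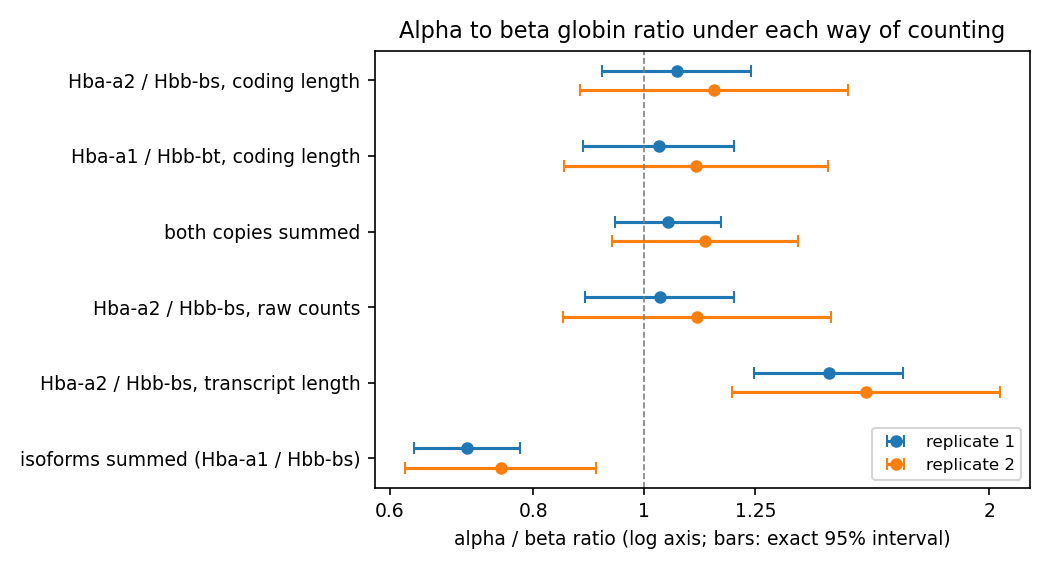
Alpha to beta globin ratio in each library under 6 ways of counting, on a log axis, with exact 95% intervals for counting error and a dashed line at equality. The intervals include 1 for either copy, for summed copies and for raw counts. They lie above 1 per transcript length of Hba-a2 and Hbb-bs and lie below 1 with isoforms summed. With copies or isoforms summed they are too narrow if a fragment was counted repeatedly.

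Globin footprints stood high among the coding genes of the brain libraries. Among 4294 protein-coding genes that averaged 10 or more counts and had a coding length, Hba-a2 ranked at place 13 by density in replicate 1 and at place 20 in replicate 2, and Hba-a1 at places 17 and 19. Hbb-bs ranked at places 19 and 29, and Hbb-bt at places 22 and 27. At most 0.652% of these genes lay above any adult globin in either library. Densities were between 33.4 and 36.3 times the median coding gene in replicate 1 and between 35.8 and 41.5 times in replicate 2. Ranked by CPM, with no account of length, the same genes fell between places 47 and 58, since their coding sequences are short. A fragment counted for both copies of a pair would raise the density and place of each copy. The places of the alpha copies may thus not be separate observations, and ratios of Hba-a2 to other genes share this limit.

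**Figure D3:**
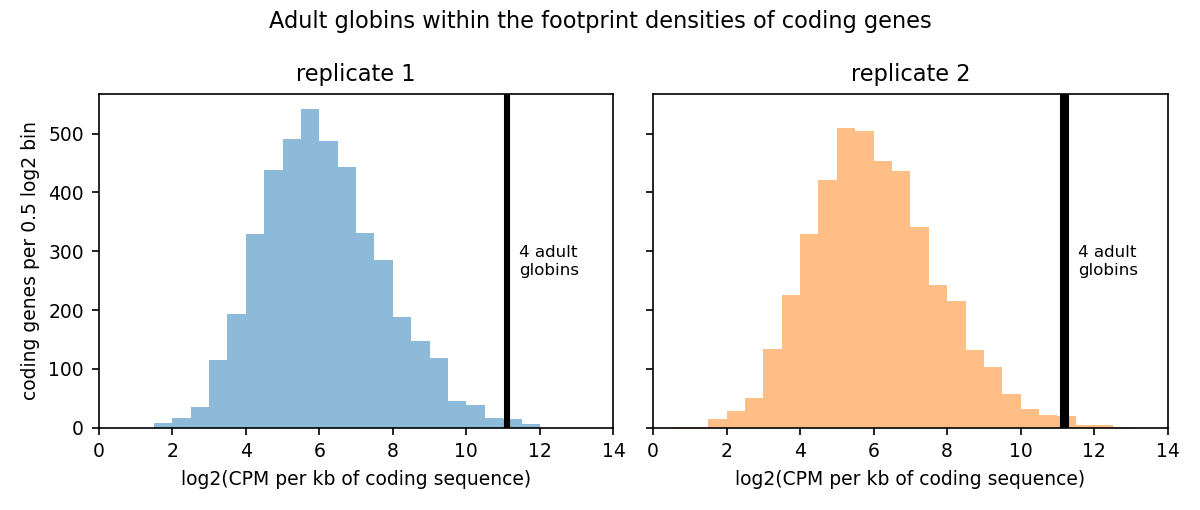
Number of coding genes per bin of footprint density, on the log2(CPM per kilobase) scale, in each library, with a black band for the range of the 4 adult globins. The band lies in the upper tail in both libraries; genes at 0 in a library are not drawn there.

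With 1 alpha and 1 beta copy counted, globins took 715 of the 343552 gene counts of replicate 1, a share of 0.208% with a 95% Wilson interval of 0.193 to 0.224. For replicate 2 the share was 0.190% (0.167 to 0.217), from 229 of 120282 counts, and the mean of both was 0.199% ± 0.013 (SD, n = 2). The intervals of the libraries overlap. Counting every copy gave 0.397% ± 0.017 (SD, n = 2), which may hold some fragments more than once. As a share of protein-coding counts alone, globins held 0.256% in replicate 1 and 0.260% in replicate 2, which lie closer together than the shares of all counts.

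By the distance in log2 density over both libraries, the non-globin coding genes most like Hba-a2 were Stmn2, Stmn1 and Ubb, at distances of 0.116, 0.120 and 0.128. Stmn2 and Stmn1 encode stathmins, which bind tubulin, and Ubb encodes polyubiquitin. Stmn2 had 2198 and 2679 CPM per kilobase, Stmn1 had 2198 and 2322, and Ubb had 2497 and 2519. Among the 3 nearest to Hbb-bs were Stmn1 and Calm2, a calmodulin gene, at distances of 0.103 and 0.243. Calm2 had 1825 and 2064 CPM per kilobase. The 4 named genes ranked between places 14 and 30 by mean density. Likeness over 2 libraries of 1 group rests on level and says nothing of shared control.

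No adult globin was called different between the libraries. A 2-sided exact binomial test with Benjamini-Hochberg adjustment over the 5436 genes that averaged 10 or more counts called 0 of the 4 adult globins, where it called 4.14% of all tested genes and 0.956% of the protein-coding ones. None of the 4 had an unadjusted p under 0.05, and an edgeR exact test with a preset biological coefficient of variation of 0.2, which called 2.41% of all tested genes, also called 0 of 4. On the log2(CPM + 1) scale, the difference of replicate 2 from replicate 1 was 0.22 for Hba-a1 (counting SE 0.153), 0.13 for Hba-a2 (SE 0.152), 0.11 for Hbb-bt (SE 0.156) and 0.02 for Hbb-bs (SE 0.159). The median of the 4 was 0.12, beside 0.0041 over all tested genes, and their adjusted exact binomial p ranged from 0.805 to 1. Copies of a pair may hold the same fragments, so these 4 may not be separate observations. The test compares these libraries, not conditions; the 4 adult genes had at least 108 counts in each library, and the 3 embryonic members did not reach the filter. Scaling by library totals lowered the median of all tested genes to -0.20, and the ratios of Hba-a2, Hbb-bs and Hbb-bt then turned to -0.08, -0.19 and -0.10.

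Embryonic globins were at or near 0. Hba-x, the zeta-type chain of yolk sac red cells, had 0 counts in both libraries. Hbb-bh1, an early embryonic beta-type chain, also had 0 and 0. Such a zero is compatible with up to 3 counts, or 0.000873% of the gene counts in replicate 1 and 0.0025% in replicate 2. With that limit taken for each library, Hba-x was at least 121-fold lower per coding length than Hba-a2 in replicate 1 and at least 40.0-fold lower in replicate 2. Hbb-bh1 was at least 117-fold lower than Hbb-bs in replicate 1 and at least 36.0-fold lower in replicate 2.

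Hbb-y, the epsilon-type embryonic chain, had 2 counts in replicate 1 and 1 in replicate 2. Hbb-bs exceeded it by a ratio of 175.5 in replicate 1 (exact 95% interval 48.2 to 1455) and 108.0 in replicate 2 (19.0 to 4305). So few counts may also come from fragments shared with the adult genes, which was not tested.

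Other globin genes were low as well. Hba-ps4, an alpha globin pseudogene, had 22 and 4 counts, which are 6.08% and 3.33% of those of Hba-a2. Its counts are uncertain because a pseudogene can share fragments with its parent family. Hbq1b, a theta-type gene between the alpha copies, had 2 and 0 counts, and Hbq1a, Hbb-bh2, Hbb-bh0 and Hbb-bh3 had 0 in both libraries. Cygb, the gene for cytoglobin, had 13 and 8 counts, or 61.5 and 124.7 CPM per kilobase of coding sequence, and Ngb, the gene for neuroglobin, had 2 and 1. Hba-a2 was denser than Cygb by a ratio of 37.2 in replicate 1 (exact 95% interval 21.5 to 70.5) and 20.0 in replicate 2 (9.85 to 47.5). Myoglobin (Mb) had 0 counts in both. Of these, Hba-ps4 and Cygb reached the count filter and neither was called, where the exact binomial test called 4.14% of all tested genes. The adjusted p values of Hba-ps4 and Cygb in the exact binomial test were 0.995 and 0.746.

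Each of the 9 enzymes of heme synthesis had counts in replicate 1, at much lower density than the globins. The 9 enzymes together had 90 counts, a share of 0.0262%, in replicate 1 and 23 counts, a share of 0.0191%, in replicate 2. Their Wilson intervals, 0.0213 to 0.0322 and 0.0127 to 0.0287, overlap. Alas1, the housekeeping form of the first and rate-limiting enzyme, had 15 and 7 counts. Alas2, its erythroid form, had 6 and 1. Alad, which joins aminolevulinate molecules into porphobilinogen, had the most, 27 and 8, on a transcript classed as non-coding. Its coding transcript stood at 73.7 and 54.0 CPM per kilobase.

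The later steps followed at low counts. Uros, which closes the ring, had 5 and 0 counts. Urod, which trims the side chains, had 11 and 1, and Cpox, the next oxidase, had 13 and 3. Ppox, which makes protoporphyrin, had 3 and 1, on a retained-intron transcript, and Fech, which inserts iron, had 7 and 2. Uros was at 0 in replicate 2, where 1 count is worth 8.93 CPM against 2.71 in replicate 1. Alas1 and Alad reached the count filter, and 0 of these 2 were called in either direction, nor had either an unadjusted p under 0.05. The exact binomial test called 4.14% of all tested genes and 0.956% of the protein-coding ones. A count of 0 of 2 thus does not set Alas1 and Alad apart. Their log2 ratios were 0.61 with a counting SE of 0.660 and -0.03 with one of 0.581. The adjusted p values of the exact binomial test were 0.927 and 1. The edgeR test with the preset coefficient called 0 of the 2, beside 2.41% of all tested genes.

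Set against these enzymes, the globin messages carried far more footprints. Per coding length, Hba-a2 exceeded Alas2 by a ratio of 242 in replicate 1 (exact 95% interval 110 to 663) and 481 in replicate 2 (84.7 to 19148). It exceeded Alas1 by 108 (64.8 to 196) and 77.0 (36.2 to 196). The gap to Alad, the densest of the 9 enzymes, was smaller. Alad stood at 73.7 and 54.0 CPM per kilobase on its coding transcript, and Hba-a2 at 2287 and 2498. Alas1 over Alas2 was 2.23 (0.818 to 7.02) and 6.25 (0.803 to 282), with intervals that include 1, so the order of the forms was not resolved at this depth.

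**Figure D4:**
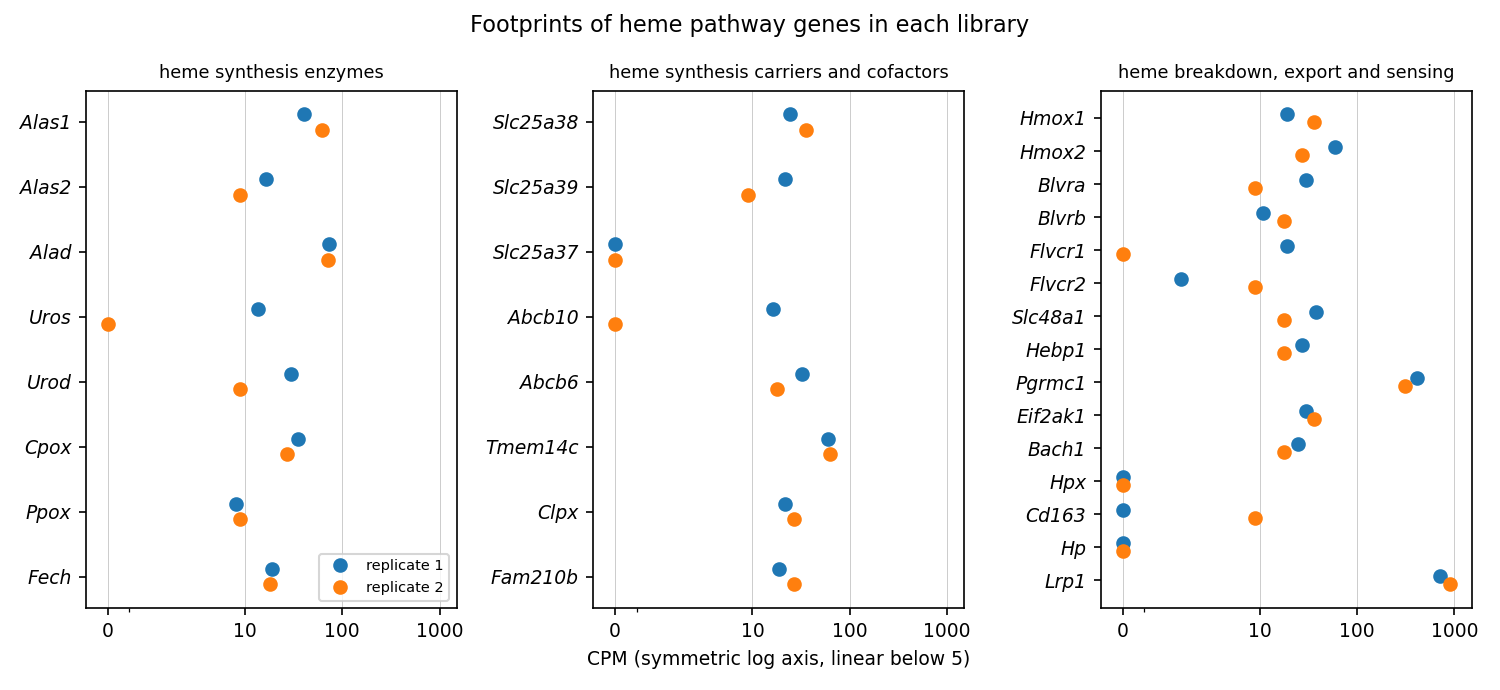
CPM of genes of the heme lists in each library, on a symmetric log axis that is linear below 5, with 1 point per library. Alad lies highest among the enzymes at 73.2 and 71.4 CPM, while Pgrmc1 and Lrp1 lie above 300 CPM in both libraries.

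Of 9 carriers and cofactors of heme synthesis, 8 had a count. Tmem14c, which moves protoporphyrinogen into the mitochondrial matrix, led with 22 and 7 counts, or 172.8 and 181.2 CPM per kilobase. Slc25a38, the glycine carrier of mitochondria, had 9 and 4. Slc25a37, the mitoferrin of red cell precursors, had 0 in both, and Abcb10, its partner in those cells, had 6 and 0. Abcb6, Slc25a39, Clpx and Fam210b had between 7 and 12 counts in replicate 1 and between 1 and 3 in replicate 2. Of this list Tmem14c reached the filter, and it was not called (log2 ratio 0.07, adjusted exact binomial p = 1), where 4.14% of all tested genes were. With library totals or with at least 1 count required in each library the ratio of Tmem14c turned negative.

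Of 15 genes for heme breakdown, export and sensing, 13 had a count. Hmox2, the constitutive heme oxygenase, had 22 and 3 counts, and Hmox1, the inducible form, had 7 and 4. The biliverdin reductases Blvra and Blvrb had 11 and 1, and 4 and 2. Slc48a1, a heme transporter of lysosomes, had 14 and 2, and Hebp1, a heme-binding protein, 10 and 2. The heme exporter Flvcr1 (Mfsd7b in the table) had 7 and 0, while its relative Flvcr2 had 1 and 1. Eif2ak1, the kinase that stops globin synthesis when heme is short, had 11 and 4, and Bach1, a repressor released by heme, 9 and 2.

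The scavengers of free haemoglobin and heme in plasma, Hp and Hpx, had 0 in both libraries, and their receptors Cd163 and Lrp1 had 0 and 1, and 262 and 102. Lrp1 is a receptor with many other ligands, and with a coding sequence of 13638 nucleotides its density was 52.1 and 66.8 CPM per kilobase. Pgrmc1, a heme-binding membrane protein with other roles too, was the densest of the list at 705.2 and 531.5 CPM per kilobase, from 153 and 35 counts. Hmox2, Pgrmc1 and Lrp1 reached the filter and 0 of 3 were called, by the exact binomial test or by edgeR with the preset coefficient. Those tests called 4.14% and 2.41% of all tested genes, so 0 of 3 does not set these genes apart. Lrp1 alone had an unadjusted exact binomial p under 0.05 (0.0349, adjusted 0.422, log2 ratio 0.36). The median log2 ratio of the 3 was -0.41, beside 0.0041 over all tested genes.

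Marker genes of red cell precursors were nearly absent beside the globins. Of 20 erythroid markers, 11 had 0 counts in both libraries, where 33.8% of all protein-coding genes did. Those at 0 included the transcription factors Klf1, Gata1 and Nfe2, and the membrane proteins Rhag, Rhd and Kel. Another 6 had a single count over both libraries, among them Slc4a1 (band 3). The 3 with more were Add2 with 58 and 20 counts, Tfrc with 21 and 7, and Bpgm with 8 and 6, genes that other cell types are known to express. Summed over the list, the marker share was 0.0268% for replicate 1 and 0.0283% for replicate 2, with Wilson intervals of 0.0218 to 0.0328 and 0.0202 to 0.0395. Add2, Tfrc and Bpgm carried nearly all of these counts, and the other 17 markers together had 5 counts in replicate 1 and 1 in replicate 2, so the share is mostly that of genes other cell types also express. Which cells the globin footprints came from was not tested.

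**Figure D5:**
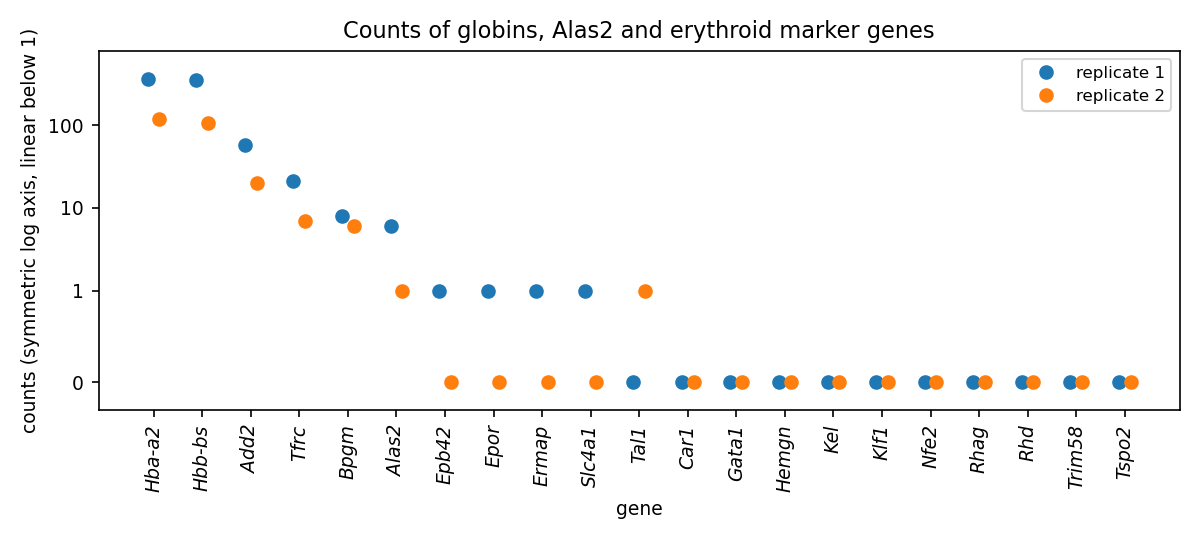
Counts in each library of Hba-a2, Hbb-bs, Alas2 and 18 of the 20 erythroid marker genes, on a symmetric log axis that is linear below 1. The globins lie between 108 and 362 counts, and 15 of the markers drawn lie at 0 or 1.

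Markers of other cells in the tissue give the scale. Leukocyte and platelet markers had 14 and 4 counts over 10 genes, endothelial markers 66 and 32 over 8, and microglial markers 90 and 26 over 8. Neuronal markers had 2427 and 842 counts over 8 genes, astrocyte and radial glia markers 1208 and 401 over 8, and oligodendrocyte lineage markers 273 and 100 over 8, so markers of the labelled tissue were present in both libraries. Of the erythroid, microglial and endothelial lists, 2, 2 and 1 genes reached the count filter and none of them was called between the libraries or had an unadjusted exact binomial p under 0.05. No leukocyte or platelet marker reached it. All 8 genes of each of the neuronal, astrocyte and oligodendrocyte lineage lists reached it. Of these, the neuronal Tubb3, a tubulin gene, was called, higher in replicate 2 (log2 ratio 0.33, adjusted exact binomial p = 0.00365). That test called 4.14% of all tested genes and 0.956% of the protein-coding ones. In the 3 lists, 2, 1 and 1 genes had an unadjusted p under 0.05, for which the share over all tested genes is not given here. With the preset coefficient of variation, edgeR called 0 genes of these lists, beside 2.41% of all tested genes. The endothelial share of gene counts was 0.0192% and 0.0266%, with overlapping Wilson intervals of 0.0151 to 0.0244 and 0.0188 to 0.0376.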

How the data were processed

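The authors deposited 1 table of whole-number footprint counts per mouse transcript and replicate, not normalised, with transcript, coding and untranslated lengths, per the file headers. Trimmomatic 0.36, Bowtie2 2.2.6, SAMtools and the build GRCm38.p4 are named in the submitters' processing notes; their settings, the counting tool and the annotation release are not given in the sources used here. The 2 alpha copies, identical where compared, carry nearly equal counts, so a fragment may have counted for more than 1 transcript; how shared fragments were assigned is not given in the sources used here. Gene totals were 343552 and 120282 counts. Library sizes were scaled with edgeR 4.0.16 (TMM, R 4.3.3) on the genes that averaged 10 or more counts. Exact tests and intervals used scipy 1.17.1 and were tested on simulated data. With 1 group there is no contrast for a quasi-likelihood fit, so libraries were compared by an exact binomial test per gene at an adjusted p of 0.05. Named were all members, the heme and globin lists and, by distance in log2 density, the 3 genes nearest to Hba-a2 and to Hbb-bs. Some genes that this rule or the lists name are not reported here, though list totals count them. Members and lists were chosen with earlier results of these data known. Of 123 list genes, 116 were matched by symbol, 3 by gene ID through the name table and 4 (Ahsp, Hbb-b1, Hbb-b2 and Hba-ps3) are not analysed here. Alternatives were other scalings, filters, isoform choices, copies and lengths, a preset coefficient of variation and each library alone.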

Additional observations from a re-analysis of the deposited data

How the results depend on the processing

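No paired analysis was possible because the study has a single group. The number of genes that differed between the libraries, 225, became 22 when scaling and test used protein-coding genes alone, 75 of the 764 genes that averaged 50 or more counts, 605 with isoforms summed, which may count a fragment repeatedly, and 131 with the preset coefficient of variation of 0.2. No adult globin and no heme gene was called under any of these, nor with the other scaling, filter and isoform choices. Among genes averaging 50 or more counts no heme synthesis enzyme was left to test. With library totals the log2 ratios of Hba-a2, Hbb-bs, Hbb-bt and Tmem14c reversed to -0.0788, -0.186, -0.0961 and -0.136, and with any count in both libraries as the filter to -0.0563, -0.164, -0.0736 and -0.114. Hbb-bs also reversed, to -0.0539, at the filter of 50. These settings change the scaling factors. The other 67 of 76 recomputed ratios of 12 genes kept direction and side of the threshold. The globin share of 0.199% became 0.397% with all copies summed and 0.258% of protein-coding counts, and 0.190% to 0.208% with each library alone. The alpha to beta ratio of 1.11 became 1.50 per transcript length of Hba-a2 and Hbb-bs and 0.725 with isoforms summed, by construction, and 1.07 to 1.15 with each library alone. The log2 difference of this ratio between the libraries stayed between 0.0969 and 0.107 with other copies and isoforms (Fisher exact p from 0.520 to 0.650). Those counts may hold the same fragments, so they are no independent check. The pseudocount did not move the member levels beyond their SD. Depth limits the heme genes: all but Pgrmc1 and Lrp1 had under 10 counts in replicate 2.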
